A study of Mus musculus with 8 samples.

Results

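The SOX and forkhead genes encode transcription factors that set the identity of many embryonic and adult tissues. They were taken from the deposited expression table as the protein-coding genes whose symbols are Sox followed by a number, or Fox followed by a letter and a number, without Foxf1 and Foxf2. They make up 60 of the 54116 genes measured, 19 Sox genes and 41 forkhead genes. The series compared mesenchymal stromal cells (MSCs), connective tissue cells able to become adipocytes or fibroblasts, of the pancreas (pMSCs) with those of a fat depot under the skin, the inguinal white adipose tissue (iwatMSCs). All cells came from untreated male C57BL/6J mice, 8 weeks old according to the methods, and no allele was altered. Both organs were taken from the same animals and cells of several mice were pooled. The sort kept cells that carried SCA1, found on stromal progenitors, and lacked the endothelial protein CD31 and the leukocyte protein CD45. The sorted cells were expanded for 4 days in culture, so the values describe cultured cells and not cells in the organ. There were 4 pMSC and 4 iwatMSC libraries, called replicates 1 to 4 of each organ.

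SOX proteins bind DNA through an HMG box that bends the double helix, and forkhead proteins bind through a winged helix, in some cases in closed chromatin. Both families are divided into lettered subfamilies whose members often act in the same cells, such as the SOXC, SOXD, SOXE and SOXF groups and the FOXC, FOXO, FOXP and FOXK groups. In mesenchyme they are known from cartilage, vessel walls and the axial and craniofacial skeleton, while FOXO factors carry the insulin signal to the nucleus and FOXM1 drives mitotic genes.

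Levels are FPKM (fragment numbers scaled for transcript length and for the size of the library), summed over the transcripts of a gene and given as mean ± SD of 4 libraries. Between 13092 and 13313 genes reached 1 FPKM in a library, the FPKM of a library summed to between 437673 and 458414, and depth in reads is unknown. Differences are pMSC minus iwatMSC on the scale log2(FPKM + 1), with the standard error and the adjusted p of limma, and a gene was called where the adjusted p was under 0.05. All 10 stromal markers were tested, and Col1a2 had a mean level of 340 ± 31.0 FPKM (pMSCs) and 353 ± 75.3 FPKM (iwatMSCs). Of the 10, Pdgfra (1.18) and Col3a1 (1.24) were called higher in pMSCs and Dcn (-0.69) and Vim (-0.32) lower. The 9 acinar markers summed to 49.3 to 256 FPKM in pMSCs, most in replicates 1 and 2, and to 1.74 to 3.69 FPKM in iwatMSCs. Of 11 duct markers 6 were tested, and 5 were called higher in pMSCs and 1, Krt19, lower (-1.41, adjusted p = 0.0036, limma). Among pMSC libraries Krt8, Krt18 and Cldn4 were highest in replicates 1 and 2 and Spp1 in replicates 3 and 4, and in iwatMSCs Krt8 and Cldn4 were listed at 0. Of 6 mesothelial markers 5 were tested, and 4 were called higher in pMSCs and Krt19, which is on this list too, lower. Their sums were 21.3 to 39.2 FPKM against 5.72 to 14.6 FPKM, and Krt19 made up nearly all of the iwatMSC sum. Over all tested genes, 9.02% were called higher in pMSCs and 10.4% lower. Because the samples are bulk RNA, fewer cells of a type and less RNA per cell cannot be told apart, and the part of other cell types in the results below was not tested except where a marker value is given.

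Of the 60 genes, 19 reached a mean of 1 FPKM over the 8 libraries and were tested, 4 Sox and 15 forkhead genes. Of these 5 were called (26.3%), beside 19.4% of the 13345 genes tested in the whole table. Foxs1, Foxc2 and Sox12 were higher in pMSCs (9.02% of all tested genes were), and Foxc1 and Sox4 were lower (10.4%). The groups did not overlap in 6 of the 19 genes, beside 24.4% of all tested genes. The median difference was -0.05 over the 19 genes and -0.03 over all genes tested, and the median size of the difference was 0.18 against 0.17. All 19 averaged 1 FPKM or more in both organs, so none passed the filter through 1 organ alone.

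**Figure D1:**
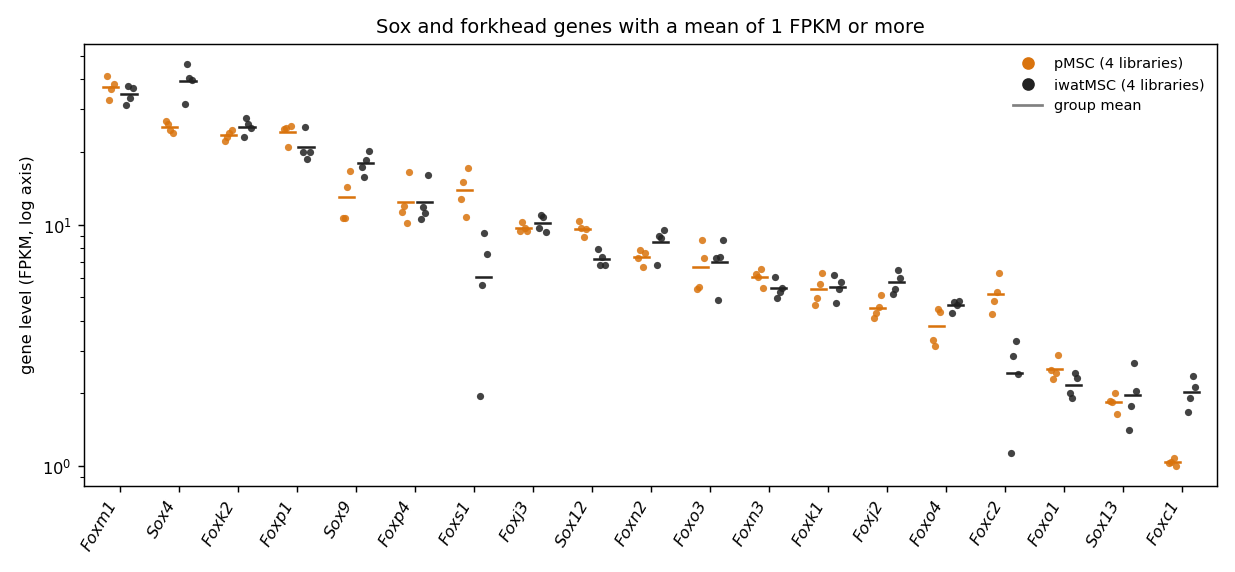
Level in FPKM on a log axis of the 19 tested Sox and forkhead genes, 1 point per library and a bar at each group mean, ordered by mean level. Foxm1, Sox4, Foxk2 and Foxp1 lie highest, and the 4 pMSC libraries of Foxc1 lie between 1.01 and 1.08 FPKM, below all its iwatMSC libraries.

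**Figure D2:**
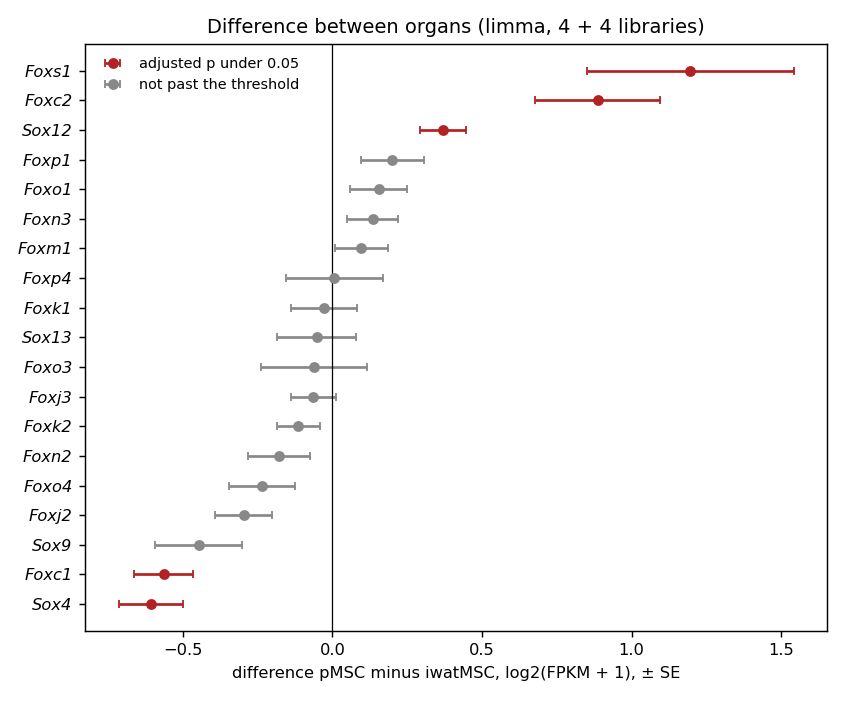
Difference pMSC minus iwatMSC on log2(FPKM + 1) of the same 19 genes, with points at the limma estimate and bars of 1 SE. The 5 genes past the threshold are red, from Sox4 at -0.61 to Foxs1 at 1.20, and the 14 others lie between -0.45 and 0.20.

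Promoter sequence was read for the called genes that matched the RefSeq promoter table of GRCm38.p6, which covers 250 bases before to 50 bases after each start. In all 40 of the 60 genes matched, with 50 promoters, and the 3 called genes among them, Sox4, Foxc1 and Sox12, are shown. Foxc2 and Foxs1, the other called genes, had no match and are given by name. Thus no forkhead gene called higher in pMSCs is shown. The promoters lie at chr13:28953650-28953949 on the minus strand for Sox4, chr13:31806396-31806695 on the plus strand for Foxc1 and chr2:152397997-152398296 on the minus strand for Sox12. Each is printed 5′ to 3′ on the strand of the gene, and capitals mark the CCAAT box (CCAAT or its reverse ATTGG) and, in Sox12, the forkhead core GTAAACA as its reverse TGTTTAC.
Sox4: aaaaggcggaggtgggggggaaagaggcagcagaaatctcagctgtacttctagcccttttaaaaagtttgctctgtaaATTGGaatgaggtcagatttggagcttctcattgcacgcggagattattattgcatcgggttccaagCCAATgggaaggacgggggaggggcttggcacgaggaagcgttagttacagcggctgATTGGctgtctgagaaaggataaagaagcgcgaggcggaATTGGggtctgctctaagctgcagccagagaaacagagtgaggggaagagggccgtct
Foxc1: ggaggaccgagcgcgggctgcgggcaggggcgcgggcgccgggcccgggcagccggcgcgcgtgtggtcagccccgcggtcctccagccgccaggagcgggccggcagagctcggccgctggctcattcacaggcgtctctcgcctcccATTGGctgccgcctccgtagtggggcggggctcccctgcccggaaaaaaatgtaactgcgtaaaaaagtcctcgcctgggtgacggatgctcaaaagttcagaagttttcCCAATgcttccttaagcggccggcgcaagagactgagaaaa
Sox12: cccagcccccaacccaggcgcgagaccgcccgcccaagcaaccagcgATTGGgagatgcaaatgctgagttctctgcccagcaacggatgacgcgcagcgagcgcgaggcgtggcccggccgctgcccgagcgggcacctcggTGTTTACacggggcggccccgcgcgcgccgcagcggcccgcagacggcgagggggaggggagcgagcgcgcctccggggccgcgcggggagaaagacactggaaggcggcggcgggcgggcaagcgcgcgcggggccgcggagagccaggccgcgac
The CCAAT box was found 4 times in the Sox4 window, 2 times in that of Foxc1 and 1 time in that of Sox12, and 37.4% of all 32851 promoters of this length hold it on either strand. The forkhead core was found 1 time, in the Sox12 window, and 3.65% of all promoters hold it. GGGCGG, searched on both strands, was found 0, 1 and 4 times in Sox4, Foxc1 and Sox12 (35.7% of all promoters), while TATAAA (13.6%) and the SOX core AACAAT (10.7%) were found in none of the 3 windows. The windows held 12, 32 and 47 CpG in the same order, where the median over all promoters was 7. These matches describe the letters only.

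Among the SOXC genes, which act in progenitors and in the developing skeleton and heart, Sox4 and Sox12 differed between the organs in opposite directions. Sox4 (ENSMUSG00000076431, 13:28948919-28953713) stood at 26.7, 26.2, 24.6 and 24.0 FPKM in the pMSC libraries and at 31.5, 46.2, 40.3 and 39.6 FPKM in the iwatMSC libraries. All pMSC libraries were below all iwatMSC libraries, and iwatMSC replicate 1 was nearest to them. The means were 25.4 ± 1.296 and 39.4 ± 6.04 FPKM, 1.55-fold, with a difference of -0.61 ± 0.11 (SE, adjusted p = 0.00435, limma). Sox12 (ENSMUSG00000051817, 2:152393611-152398063) was at 10.4, 9.64, 8.90 and 9.63 FPKM in pMSCs and at 7.91, 6.84, 7.38 and 6.83 FPKM in iwatMSCs, again without overlap. Its difference was 0.37 ± 0.08 (adjusted p = 0.00995, limma), with means of 9.64 ± 0.599 and 7.24 ± 0.518 FPKM. The Sox4 to Sox12 ratio of FPKM was 2.49 to 2.76 in pMSCs and 3.98 to 6.76 in iwatMSCs.

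The value of Sox4 may include reads of another gene. The lincRNA Gm26735 lies on the opposite strand, and 2616 of its 2649 exonic bases (98.8%) and 54.6% of those of Sox4 are common to both. Gm26735 was at 29.8 ± 2.17 FPKM in pMSCs against 47.2 ± 9.30 FPKM in iwatMSCs, with a difference of -0.63 (adjusted p = 0.00978, limma), close to that of Sox4. The strand setting of the counting is not stated, so reads in the bases common to both cannot be told apart. Sox11, the third SOXC gene, was low, at 0.0889 ± 0.0286 FPKM in pMSCs against 0.211 ± 0.0303 FPKM in iwatMSCs.

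The SOXE gene Sox9, a regulator of cartilage and of pancreatic duct progenitors, was at 10.6, 10.7, 14.3 and 16.7 FPKM in pMSCs and at 17.3, 15.8, 18.4 and 20.2 FPKM in iwatMSCs. Replicates 1 and 2 of the pMSCs, those with the most acinar transcripts, were lowest, and replicate 4 lay inside the iwatMSC range. The means of 13.1 ± 2.98 and 17.9 ± 1.87 FPKM differed by -0.45 ± 0.15, which did not pass the threshold (adjusted p = 0.0622, limma). It passed without pMSC replicate 4 (0.0200), whereas without pMSC replicates 1 and 2 the difference was -0.20 (0.334). Of 13 SOX9 cartilage targets, such as the collagen II and IX chains, only Col27a1 reached 1 FPKM and it was not called (0.26, adjusted p = 0.121, limma), while 4 were listed at 0 in every library. Sox10, the SOXE gene of Schwann cells and melanocytes, was at 0 in all libraries.

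Sox13, a SOXD gene, was at 1.84 ± 0.144 FPKM in pMSCs against 1.98 ± 0.540 FPKM in iwatMSCs (adjusted p = 0.824, limma). Over the whole family Sox4, Sox9 and Sox12 made up 90.4 to 92.0% of the summed Sox FPKM of a pMSC library and 92.8 to 94.7% of that of an iwatMSC library. The family sum was 50.5 to 54.8 FPKM in pMSCs and 60.5 to 72.7 FPKM in iwatMSCs. Sox4 alone accounted for 43.8 to 51.8% and 52.1 to 63.5%, and Sox12 for 16.9 to 19.8% and 9.40 to 13.1%.

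The FOXC genes, paralogues of mesenchyme, vessels and the eye, also went in opposite directions. Foxc2 (ENSMUSG00000046714, 8:121116171-121118895) was at 4.25, 4.83, 5.28 and 6.32 FPKM in pMSCs and at 1.14, 2.85, 3.30 and 2.40 FPKM in iwatMSCs, and the organs did not overlap. Its difference was 0.89 ± 0.21 (adjusted p = 0.0174, limma), with means of 5.17 ± 0.873 and 2.42 ± 0.933 FPKM. Foxc1 (ENSMUSG00000050295, 13:31806633-31812476) was at 1.03, 1.04, 1.08 and 1.01 FPKM in pMSCs and at 1.68, 1.91, 2.37 and 2.14 FPKM in iwatMSCs. The pMSC libraries were nearly level while the iwatMSC libraries were all higher, 1.95-fold in the mean, and the difference was -0.56 ± 0.10 (adjusted p = 0.00392, limma).

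The Foxc2 to Foxc1 ratio of FPKM was 4.14 to 6.28 in pMSCs and 0.679 to 1.49 in iwatMSCs. This and the ratios of Sox7 to Sox18 and Sox4 to Sox12 were chosen after their values were seen, so they are descriptions with no test. The mean log2 ratio of Foxc2 to Foxc1 was higher in pMSCs by 2.14 ± 0.29 (SE), that of Sox7 to Sox18 by 4.50 ± 0.54, and that of Sox4 to Sox12 differed by -1.04 ± 0.16. Forkhead genes lie in clusters, and Foxc2 starts 31.8 kb from Foxf1 and 11.8 kb from Foxl1 on chromosome 8, while Foxc1 starts 180.8 kb from Foxf2 on chromosome 13. Foxf1, which was left out by the rule, was at 1.497 ± 0.187 FPKM in pMSCs against 0.244 ± 0.0769 FPKM in iwatMSCs, whereas Foxl1 was at 0.530 ± 0.127 and 0.572 ± 0.266 FPKM. On chromosome 13 Foxf2 was at 6.93 ± 0.700 and 8.13 ± 1.78 FPKM and was not called.

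**Figure D3:**
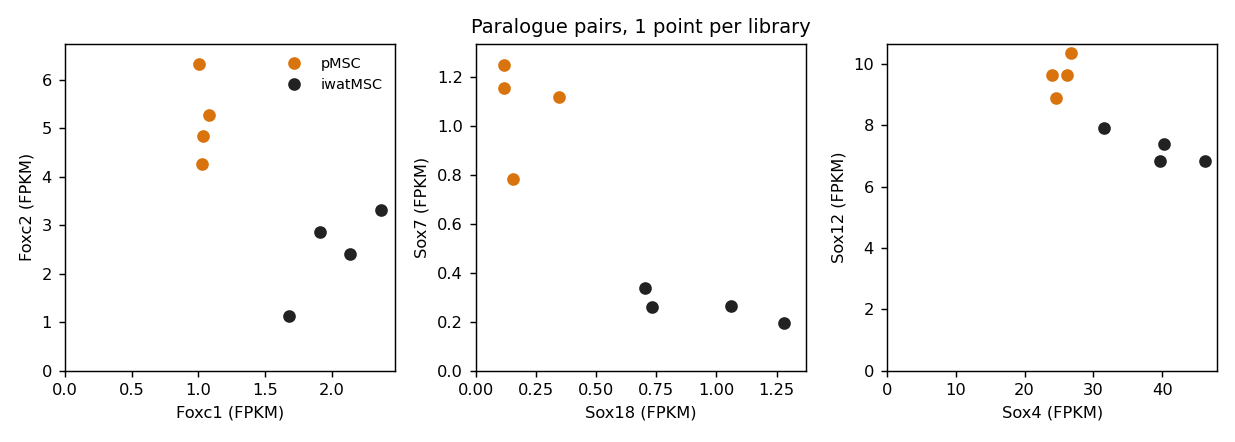
Level in FPKM of 3 paralogue pairs, 1 point per library, with the second gene on the vertical axis and linear axes from 0. In each panel the 4 pMSC and 4 iwatMSC libraries stand apart, with Foxc2, Sox7 and Sox12 higher in pMSCs and Foxc1, Sox18 and Sox4 higher in iwatMSCs.

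Foxs1 (ENSMUSG00000074676, 2:152931898-152933208), known from perivascular and neural crest derived cells, was at 12.8, 15.0, 10.7 and 17.2 FPKM in pMSCs and at 1.95, 5.63, 9.21 and 7.54 FPKM in iwatMSCs. Its ranges did not overlap, though pMSC replicate 3 and iwatMSC replicate 3 lay close. The difference was 1.20 ± 0.35 (adjusted p = 0.0403, limma), and the means of 13.9 ± 2.81 and 6.08 ± 3.12 FPKM are 2.29-fold apart. The call was lost when any pMSC library was left out (adjusted p = 0.0545 to 0.0975) and without iwatMSC replicate 2 (0.0770) or 4 (0.0508). A list of 11 pericyte and smooth muscle markers was added after the data were seen, and 7 were tested. Of these 4 were called higher in pMSCs (Des, Cspg4, Tagln and Acta2), beside 9.02% of all tested genes. The other 3, Cnn1 (1.09), Abcc9 (-0.31) and Notch3 (-0.10), were not called. All 11 summed to 585 to 1264 FPKM in pMSCs and 142 to 385 FPKM in iwatMSCs. Acta2, a fibrogenesis marker in the paper, and Tagln made up most of these sums and were highest in pMSC replicates 1 and 2. Among the markers under 1 FPKM, Rgs5, a pericyte marker, was at 0.123 ± 0.0188 and 0.107 ± 0.0118 FPKM. Mcam, at 1.32 ± 0.287 and 0.238 ± 0.0792 FPKM, was higher in pMSCs without overlap. So was Myh11, at 0.548 ± 0.312 and 0.0796 ± 0.0280 FPKM. Kcnj8 was at 0.457 ± 0.288 and 0.122 ± 0.140 FPKM, with overlap. The part of these markers in the Foxs1 result was not tested.

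The remaining 14 tested genes were not called, with adjusted p of 0.0559 to 0.986. Nearest to the threshold was Foxj2, a widely expressed factor, at 4.13, 4.30, 4.55 and 5.11 FPKM in pMSCs and 5.17, 5.43, 6.51 and 6.03 FPKM in iwatMSCs. Its ranges did not overlap, and its difference was -0.30 ± 0.09 (adjusted p = 0.0559, limma). It passed without pMSC replicate 4 (0.0471) or iwatMSC replicate 1 (0.0400). Foxj3, a factor of muscle and testis, was at 9.69 ± 0.396 and 10.2 ± 0.811 FPKM. Foxn2 was at 7.36 ± 0.516 and 8.51 ± 1.18 FPKM (adjusted p = 0.270, limma, and 0.0453 without iwatMSC replicate 1), and Foxn3, a repressor linked to the DNA damage checkpoint, at 6.08 ± 0.469 and 5.44 ± 0.459 FPKM.

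The FOXO genes were all detected, and AKT keeps most of their proteins out of the nucleus when insulin or IGF1 binds its receptor. Foxo3 was the most abundant, at 6.69 ± 1.53 FPKM in pMSCs against 7.03 ± 1.56 FPKM in iwatMSCs, followed by Foxo4 at 3.82 ± 0.689 and 4.63 ± 0.229 FPKM and Foxo1 at 2.53 ± 0.249 and 2.17 ± 0.243 FPKM. The differences were -0.06 ± 0.18, -0.24 ± 0.11 and 0.15 ± 0.10, none past the threshold. Foxo6 was at 0.191 ± 0.0383 and 0.223 ± 0.0631 FPKM. The antisense gene Gm20402, at 1.33 ± 0.287 and 1.20 ± 0.229 FPKM, shares 7.78% of the exonic bases of Foxo1. Without strand, reads in these bases cannot be told apart. Around the FOXO genes the list of the insulin receptor to AKT arm had 13 tested members. Of these 4 were called higher and 1 lower in pMSCs, beside 9.02% and 10.4% of all tested genes. The median difference was 0.08 beside -0.03 over all genes. Irs2, an adaptor of the insulin receptor, was higher (0.75 ± 0.08, adjusted p = 0.000172, limma), as was Sgk3 (0.37), and the kinase Sgk1 was lower (-0.73, adjusted p = 0.0387, limma).

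Of 19 FOXO targets 16 were tested, and 2 were called higher and 2 lower in pMSCs, beside 9.02% and 10.4% of all tested genes. Their median difference was -0.03. Bbc3, a pro-apoptotic BH3 protein, was lower (-1.36 ± 0.13, adjusted p = 0.000121, limma), as was Cdkn1a, the cell cycle inhibitor p21 (-1.29 ± 0.20, adjusted p = 0.00211, limma), whose value rests on part of its annotated transcripts. Both are also targets of p53. Cdkn1b, the inhibitor p27, was higher (0.47, adjusted p = 0.0256, limma).

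Foxm1, which drives mitotic genes in dividing cells, had the highest mean of the 60 genes over the 8 libraries, at 41.2, 32.9, 36.5 and 38.3 FPKM in pMSCs and 31.2, 37.5, 33.5 and 36.7 FPKM in iwatMSCs. The ranges overlapped widely, and the difference was 0.10 ± 0.09 (adjusted p = 0.491, limma). Of 16 FOXM1 and mitosis targets, all tested, 2 were called higher in pMSCs and none lower, with a median of 0.03. Over all tested genes 9.02% were called higher and 10.4% lower. The called genes of this list were Top2a, a DNA topoisomerase (0.34 ± 0.06, adjusted p = 0.00277, limma), and Aurkb, a mitotic kinase (0.32 ± 0.08, adjusted p = 0.0273, limma).

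Foxk2 and Foxk1, repressors that recruit the SIN3A complex, were at 23.5 ± 1.15 and 5.42 ± 0.754 FPKM in pMSCs and at 25.5 ± 1.86 and 5.53 ± 0.614 FPKM in iwatMSCs. Neither was called. Of 10 genes on a list of SIN3A complex members and other FOXK partners, all tested, 1 was called, beside 19.4% of all tested genes. It was Suds3, which was lower in pMSCs (-0.30 ± 0.06, adjusted p = 0.00799, limma). Of 5 TLE co-repressors, which several forkhead factors bind, 4 were found by symbol and tested, and Tle5 was not found under that symbol. Of the 4, 0 were called by limma or by the unequal-variance test (1 at an unadjusted p under 0.05 in each). Tle3 was at 17.0 ± 3.49 and 16.9 ± 1.97 FPKM and Tle1 at 12.4 ± 0.666 and 10.4 ± 0.792 FPKM. Foxm1, Foxk2 and Foxp1 together held 49.1 to 54.2% of the summed forkhead FPKM of a pMSC library and 49.1 to 55.7% of that of an iwatMSC library, and the sum over the 41 forkhead genes, 160 to 181 FPKM, overlapped that of iwatMSCs, 139 to 165 FPKM.

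The FOXP genes, repressors of lung, brain and lymphocyte development, were led by Foxp1 at 24.2 ± 2.16 FPKM in pMSCs against 20.99 ± 2.98 FPKM in iwatMSCs (0.20 ± 0.11, adjusted p = 0.226, limma). Foxp4 had the smallest difference of the 19 genes, at 12.4 ± 2.77 and 12.4 ± 2.48 FPKM (0.01 ± 0.16, adjusted p = 0.986, limma). Foxp3, the factor of regulatory T cells, was at 0.698 ± 0.0872 and 0.811 ± 0.142 FPKM, from 4 of its 10 annotated transcripts. Of 6 regulatory T cell markers Cd3e and Il2ra were listed at 0 in all 8 libraries, and Ctla4, Cd4 and Ptprc were at most 0.0926 FPKM. Ikzf4 was detected in every library, at 0.276 ± 0.0761 and 0.224 ± 0.0987 FPKM. The 6 summed to 0.273 to 0.415 FPKM in pMSCs and 0.143 to 0.392 FPKM in iwatMSCs, and their part in the Foxp3 values was not tested. Ccdc22, on the opposite strand at 10.3 ± 1.04 and 10.8 ± 1.48 FPKM, shares 590 exonic bases with Foxp3, 14.8% of those of Foxp3. Without strand, reads in these bases cannot be told apart.

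At the level of transcripts, 27 transcripts of these genes were tested and 3 were called, those of Sox4, Foxc1 and Sox12, beside 5.54% of the 24686 transcripts tested. None of the 3 was called by limma without any 1 pMSC library or without iwatMSC replicate 3 or 4 (5 to 9 of the 27 at an unadjusted p under 0.05), and 1 was called without iwatMSC replicate 2. Foxc2-201 and Foxs1-201, with the same values as their genes, did not pass in this larger table (adjusted p = 0.0719 and 0.128, limma). Foxj3, Foxm1, Foxp1 and Foxp4 had several tested transcripts, 12 in all, and 0 were called by limma or by the unequal-variance test (1 at an unadjusted p under 0.05 in each). Transcripts of 1 gene varied among libraries of the same organ. Foxp1-204, a long transcript of 19 exons, was at 0.995, 1.16, 10.3 and 7.47 FPKM in pMSCs and at 9.80, 5.81, 5.41 and 5.33 FPKM in iwatMSCs, with pMSC replicates 1 and 2 far below the other 6 libraries. Foxm1-206, annotated as a retained intron, was at 3.03, 3.05, 9.75 and 11.2 FPKM in pMSCs and 5.80, 2.99, 3.72 and 1.88 FPKM in iwatMSCs, with pMSC replicates 3 and 4 highest.

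**Figure D4:**
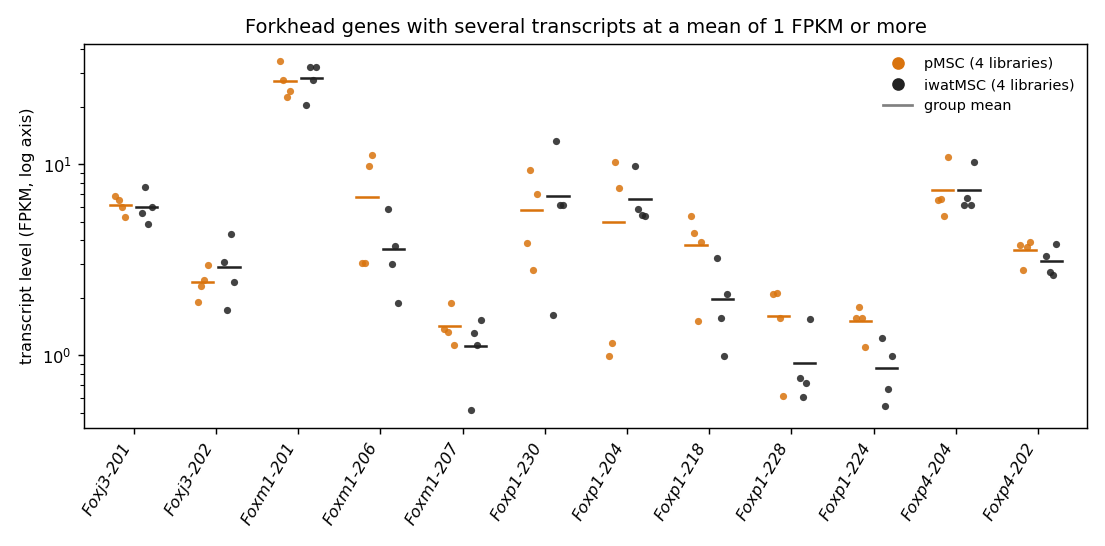
Level in FPKM on a log axis of the 12 tested transcripts of Foxj3, Foxm1, Foxp1 and Foxp4, 1 point per library and a bar at each group mean. Foxp1-204 spreads from 0.995 to 10.3 FPKM within the pMSC libraries, while the organs overlap for every transcript shown.

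Another 41 genes were under a mean of 1 FPKM. Of these 14 were listed at 0 in every library, the Sox genes Sox1, Sox10, Sox14 and Sox17 and the forkhead genes Foxb1, Foxb2, Foxd3, Foxd4, Foxh1, Foxi1, Foxi2, Foxi3, Foxn4 and Foxr1. They include factors of neural, endodermal and ear development. A further 13 averaged under 0.1 FPKM, with Sox15 highest at 0.0575 ± 0.0664 FPKM in pMSCs against 0.111 ± 0.0996 FPKM in iwatMSCs. Mpdu1, on the opposite strand at 21.4 ± 2.54 and 21.6 ± 2.85 FPKM, shares 3.60% of the exonic bases of Sox15. Without strand, reads there cannot be told apart. The pioneer factors Foxa1, Foxa2 and Foxa3, known from liver and pancreatic epithelium, reached at most 0.118 FPKM. The other 14 averaged 0.1 to 1 FPKM and were read from the fit of all 29105 detected genes without the filter.

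In that fit 7 of the 27 detected genes under 1 FPKM were called, beside 4.93% of all 15760 such genes, and the groups of 8 did not overlap, beside 8.33%. All of them were among the 14 genes, where 7 were called beside 11.4% of the 5658 genes of that range, and 8 did not overlap, beside 17.6%. Sox7, Sox6, Sox8 and Foxj1 were higher in pMSCs and Sox18, Foxl2 and Sox11 lower. These are small levels whose depth is unknown, and the differences are compressed by the pseudocount of 1.

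The SOXF genes of endothelium and vessel development went apart. Sox7 was at 1.25, 0.783, 1.12 and 1.16 FPKM in pMSCs and 0.337, 0.262, 0.196 and 0.266 FPKM in iwatMSCs, 4.06-fold in the mean (adjusted p = 0.00203, limma). Sox18 was at 0.116, 0.157, 0.344 and 0.117 FPKM in pMSCs and 0.705, 0.732, 1.28 and 1.06 FPKM in iwatMSCs (adjusted p = 0.0072, limma). Neither overlapped, and the third SOXF gene, Sox17, was at 0. The endothelial markers Tie1 and Emcn were also at 0 and Pecam1 was at most 0.482 FPKM, whereas Cdh5 was at 0.112 ± 0.0565 and 0.840 ± 0.109 FPKM and Tek was lower in pMSCs (-1.09, adjusted p = 0.000765, limma). In the other direction, Flt1 was at 0.674 ± 0.0506 and 0.0929 ± 0.0381 FPKM, without overlap, and Esam at 0.380 ± 0.223 and 0.0625 ± 0.104 FPKM. The list of 11 endothelial markers summed to 6.11 to 7.91 FPKM in pMSCs and 10.0 to 12.7 FPKM in iwatMSCs, and its part in the SOXF values was not tested.

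Sox6, a SOXD partner of Sox9 in cartilage, was at 0.332, 0.203, 0.616 and 0.451 FPKM in pMSCs and 0.0144, 0.0206, 0.0353 and 0 FPKM in iwatMSCs (adjusted p = 0.0127, limma). Sox5, of the same subfamily, was at 0.454 ± 0.0620 and 0.569 ± 0.119 FPKM and overlapped. Sox8, a SOXE gene, was at 0.327, 0.395, 0.385 and 0.441 FPKM against 0.0624, 0.185, 0.241 and 0.134 FPKM (adjusted p = 0.0192, limma). Its antisense neighbour 2810468N07Rik overlaps 10.6% of the exonic bases of Sox8 and was at 1.14 ± 0.262 and 0.884 ± 0.336 FPKM. Without strand, reads in the shared bases cannot be told apart. Without pMSC replicate 2 or 4 or iwatMSC replicate 4 the Sox8 call was lost (adjusted p = 0.0511, 0.0508 and 0.0575), and with a pseudocount of 0.1 so were those of Sox8 (0.0600) and Sox11 (0.0506). The Schwann cell marker S100b was lower in pMSCs and Gfra3 was at 0, and the 8 markers of that list summed to 1.36 to 1.56 and 2.96 to 3.87 FPKM, and their part in the Sox8 values was not tested.

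Foxl2, known from ovary and eyelid, was listed at 0.0193, 0, 0 and 0.0194 FPKM in pMSCs and at 0.345, 0.307, 0.604 and 0.450 FPKM in iwatMSCs (adjusted p = 0.00246, limma). Foxl2os, on the opposite strand, was at 0 in all pMSC libraries and at 0.141, 0.0892, 0.216 and 0.212 FPKM in iwatMSCs. Foxj1, the regulator of motile cilia, was at 0.287, 0.145, 0.214 and 0.229 FPKM in pMSCs and 0, 0.141, 0 and 0.0243 FPKM in iwatMSCs (adjusted p = 0.0337, limma). The lowest pMSC and the highest iwatMSC library nearly met. The call held without pMSC replicate 2 (0.0347) or iwatMSC replicate 2 (0.00937) but was lost without any of the other 6 libraries (0.0718 to 0.0939). Among multiciliated cell markers Tekt1 was at 0, and Dnah5, Dnah9 and Hydin were at most 0.0104 FPKM, while Ccdc39, Rsph1 and Cfap126 were detected in every library. The 7 markers found of that list summed to 2.46 to 4.38 FPKM in pMSCs and 2.42 to 3.56 FPKM in iwatMSCs, and their part in the Foxj1 values was not tested. Foxp2, without overlap at 0.224 ± 0.0946 and 0.565 ± 0.193 FPKM, was not called (adjusted p = 0.0609, limma), nor were Foxp3, Foxl1, Sox5, Foxo6, Foxq1 and Foxd2. A530084C06Rik, on the opposite strand at 0.141 ± 0.0691 and 0.158 ± 0.0841 FPKM, shares 66.1% of the exonic bases of Foxq1. Without strand, reads in these bases cannot be told apart.

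**Figure D5:**
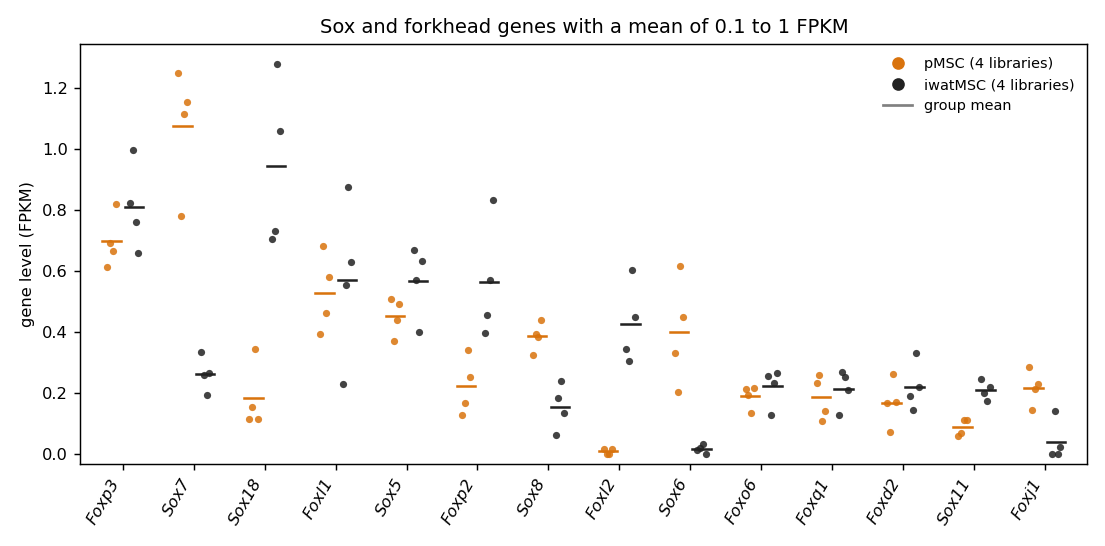
Level in FPKM of the 14 Sox and forkhead genes that averaged 0.1 to 1 FPKM, 1 point per library on a linear axis, with a bar at each group mean. Sox7 is higher in all 4 pMSC libraries and Sox18 in all 4 iwatMSC libraries, while Foxl2 is at or near 0 in pMSCs and Sox6 in iwatMSCs.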

How the data were processed

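RNA of 8 libraries was sequenced by the authors on a BGISEQ instrument, and the submitters' processing notes name STAR and StringTie with the GRCm38.p6 genome. The deposited values are FPKM per Ensembl transcript, with 0 columns of values without a sample. The strand setting is not given in the sources used here, and FPKM keep no depth, so no counting error is given. Groups were taken from the labels, and replicates were numbered in library order. Whether the 4 libraries of each organ were separate pools of mice is not stated, and the p-values then reflect only the variation among these libraries, which may be technical.

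By identifier 136372 of 136535 transcripts (99.88%) were matched to GENCODE M21, whose GRCm38 coordinates are given, and summed to 54116 genes. Genes or transcripts with a mean of 1 FPKM or more were tested on log2(FPKM + 1) with limma 3.58.1 in R 4.3.3 (two-sided, lmFit and trended eBayes, without covariates) over the whole table, with Benjamini-Hochberg adjustment. The pseudocount of 1 understates differences of low genes. The authors' own test was unequal-variance with an unadjusted p under 0.05. That test with Benjamini-Hochberg adjustment is an alternative here, beside other pseudocounts, filters, scalings, weights and left-out libraries. The scripts were tested on simulated data. Every member is accounted for, except 1 gene that is not reported here and is left out of the counts of members. Of each pathway list up to 3 called genes with the largest change were named, or else the 2 most abundant. Single markers and neighbouring genes were picked with their values known. The members and lists were chosen with earlier results of these data known.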

Additional observations from a re-analysis of the deposited data

How the results depend on the processing

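No paired analysis was possible because replicate numbers follow library order only and nothing in the sources links libraries of the 2 organs. Of the 5 called genes, all kept their direction under every alternative, and calls under TPM rescaling, median-of-ratios scaling, quantile normalization and a pseudocount of 5 were kept for each. Foxs1 was lost with a pseudocount of 0.1 (adjusted p = 0.0502, limma), without a filter (0.0907) and with protein-coding transcripts only (0.0504), which left 4 genes each. With a mean of 5 FPKM or more 3 genes and 2 transcripts were called, since the other called genes averaged less, and without a filter 0 transcripts by limma (8 at an unadjusted p under 0.05). With adjustment, the unequal-variance test on FPKM called 1 of these genes (Sox12) and 0 of their transcripts (8 at an unadjusted p under 0.05). In the whole table it called 1017 genes and 473 transcripts, against 2589 and 1367. The authors' threshold, applied to transcripts, was an unadjusted p under 0.05. In this test the 5 called genes had unadjusted p of 0.00099 (Sox12) to 0.0164 (Sox4). Leaving out pMSC replicates 1 and 2 together, chosen after seeing the data for their acinar transcripts, called 2 genes and 0 transcripts of the families by limma (5 transcripts at an unadjusted p under 0.05), and 1468 genes and 534 transcripts in all. Foxc2 (adjusted p = 0.0580), Sox12 (0.0862) and Foxs1 (0.169) were then lost by limma, as were Sox18 (0.0874), Sox11 (0.141), Sox8 (0.0832) and Foxj1 (0.104) of the low genes. With 1 library left out, 4 to 7 genes and 0 to 3 transcripts of the families were called, and 1793 to 2840 genes and 864 to 1518 transcripts in all. The cause of these changes was not tested, and the loss of 2 libraries by itself leaves fewer samples.

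Directions turned only for genes and transcripts that were not called. Differences changed sign for Foxm1 (-0.0536) and Foxp4 (-0.0119) with protein-coding transcripts only, Foxp4 with array weights (-0.0216) and Foxk1 under TPM (0.0021). Without pMSC replicates 1 and 2 they did for Foxo3 (0.17), Foxk1 (0.108), Foxj3-201 (-0.0627), Foxp1-204 (0.406) and Foxp4-204 (0.0986), and the last also under TPM (0.0244), median-of-ratios (0.0030) and quantile normalization (0.0106). With 1 library left out the ranges were -0.127 to 0.127 for Foxp4, -0.203 to 0.0336 for Foxo3, -0.0942 to 0.0316 for Foxk1, -0.149 to 0.0558 for Sox13, -0.0393 to 0.144 for Foxj3-201, -0.311 to 0.0107 for Foxj3-202, -0.187 to 0.0356 for Foxm1-201, -0.524 to 0.293 for Foxp1-230 and -0.193 to 0.150 for Foxp4-204. Foxj2 passed with array weights (adjusted p = 0.0127, limma) and narrowly without the trend in eBayes (0.04998). Sox9 passed with array weights (adjusted p = 0.0172, limma).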
